A study of Triticum aestivum with 2 samples.

Results

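The transcripts described here are 34 probe sets of the Affymetrix GeneChip Wheat Genome Array that were listed as sense-antisense transcript pairs but could not be given a function. They were taken as all probe sets placed under the heading of unknown function in a list of 110 pairs, where 14 carry the name hypothetical protein and 20 the name unknown. The array holds 61115 wheat probe sets, so the members are a small part of it, and they fall into 22 design clusters, meaning groups of sequences that share the first part of the probe set name. Total RNA of the spring wheat genotype 'Chinese Spring' was pooled from 5 tissues, namely germinated seed kept in the dark, shoot, flag leaf, spike before anthesis and spike after anthesis. The plants for the other tissues were grown in a greenhouse with a light and dark cycle. The same pool was hybridized to 2 arrays, 1 with target from the 3'IVT assay, in which oligo(dT) primed target reads the sense strand, and 1 with target from the WT assay, in which randomly primed target of the opposite orientation reads the antisense strand. Neither assay has a replicate array, so no value carries an error between samples and no test between assays was made. Because the tissues were pooled, the tissue in which a transcript was made, the number of cells that made it and its amount per cell cannot be told apart.

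A natural antisense transcript is an RNA copied from the strand opposite to a gene, and it can overlap the sense transcript of that gene in part or in full. Plastid genomes are compact, carry genes on both strands and are copied into long transcripts that often run past the end of a gene, so RNA from both strands is well known there. Most plastid RNA lacks the long poly(A) tail of nuclear messenger RNA, which oligo(dT) priming relies on. These points are background and were not tested on the arrays.

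Every member was selected on its signals in both assays on these same arrays, using another summarization of the probes. Selection also required a present call, meaning that MAS5 called the probe set detected, in each assay. The signals below are therefore a description of the members and support nothing about them by themselves. The deposited MAS5 signals were used as log2 values, and each was set against the lowest of the 9 probe sets for bioB, a bacterial gene spiked in near the limit of detection. That threshold was a log2 signal of 9.69 with 3'IVT target and 15.19 with WT target. The difference of a log2 signal from it is called the excess. Signals of the assays are not comparable as levels, and the excess only places a probe set against the same spiked-in control on each array. Probe sets for the same region of a spiked-in control differed with a pooled SD of 0.32 log2 units by 3'IVT and 0.26 by WT (9 regions, read by 27 probe sets). Wheat probe sets made for the same sequence and strand had a median absolute difference of 0.93 and 1.31 log2 units (6186 comparisons). Neither is an error between samples. Green tissue was visible in the pool, since the RUBISCO small subunit probe set Ta.2752.3.S1_x_at had a log2 signal of 15.57 in the 3'IVT assay. RUBISCO activase (Ta.27660.1.S1_at) had 15.37 there and chlorophyll a/b binding protein (Ta.20639.3.S1_a_at) 14.17. Ta.2752.1.A1_at and Ta.2752.1.A1_x_at, lettered A for a design sequence in antisense orientation, had 7.69 and 7.32, below the threshold.

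Of the 34 members, 33 lay above the threshold of the 3'IVT assay, against 17.3% of all wheat probe sets. In the WT assay 32 lay above it, against 0.367%, and 32 lay above both, against 0.208%. The rule fixed these counts and nothing is read from them. The median excess was 2.94 log2 units for 3'IVT (quartiles 1.65 and 4.37, range -0.30 to 5.87) and 2.12 for WT (quartiles 1.22 and 4.03, range -0.11 to 4.46). The median of all wheat probe sets lay at -3.07 and -7.18. A WT excess above 3 log2 units was found in 13 members, from 3.25 to 4.46, and the next lower member, Ta.20566.2.A1_s_at, stood at 2.56. The members just inside the WT threshold were TaAffx.128712.4.S1_x_at at 0.21, TaAffx.128418.102.S1_at at 0.49 and TaAffx.6196.3.S1_at at 0.54. Just outside it were TaAffx.28490.2.S1_s_at at -0.05 and Ta.645.3.A1_at at -0.11, and the latter also missed the 3'IVT threshold, at -0.30. Their distances from the WT threshold are smaller than the spread between spiked-in probe sets. Against probe sets for reporter genes that wheat does not carry, every one of the 34 was brighter than the highest of 63, which had 7.02 by 3'IVT and 11.76 by WT. Both values lie well below the bioB thresholds, and the members were chosen to exceed bioB on these arrays, so nothing is read from this either. The brightest reporter probe set, for cre, a gene that is also used as a spiked-in control, was left out of the 63.

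**Figure D1:**
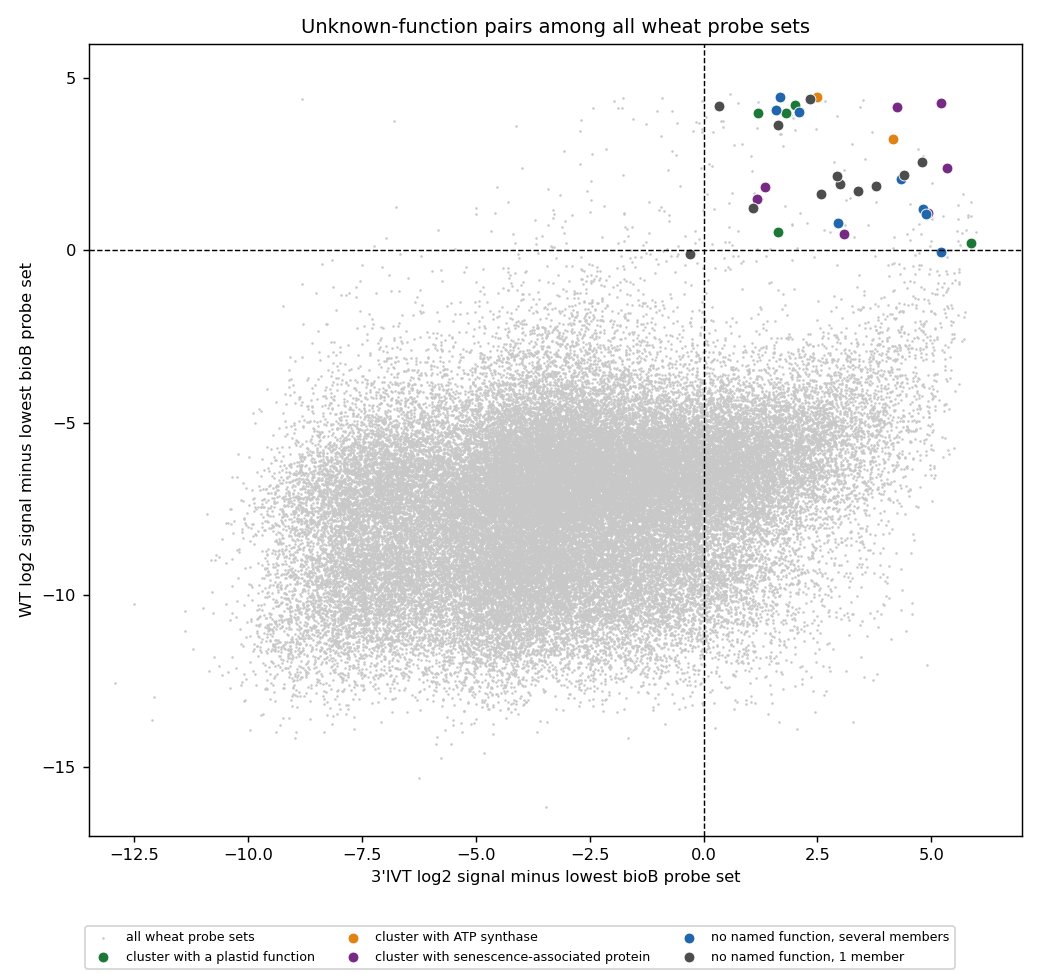
Each point is a probe set, with its 3'IVT log2 signal minus that of the lowest bioB probe set on the x axis and the same for the WT assay on the y axis. Gray points are all 61115 wheat probe sets, colored points are the 34 members by the named function found in their design cluster, and dashed lines mark the thresholds. The members lie in the sparse upper right corner except Ta.645.3.A1_at and TaAffx.28490.2.S1_s_at, which fall just below the WT line.

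The members differed in which assay gave the larger excess. Above 3 log2 units of excess in the WT assay but not in the 3'IVT assay were 10 members, the reverse held for 12, neither for 9 and both for 3. The 3 with high excess in both were TaAffx.128418.104.A1_s_at, TaAffx.128418.92.A1_x_at and TaAffx.128565.28.S1_x_at, all with probes shared between transcripts. Of the 127 wheat probe sets above both thresholds, which include most members, 32 exceeded 3 log2 units in the WT assay alone, 51 in the 3'IVT assay alone and 7 in both, and of the 76 listed pairs with a named function these were 21, 35 and 4. All of these values come from the signals that chose the listed probe sets, and nothing particular to the members is read from them. Across the members the Spearman rho of the excesses was -0.20 (34 probe sets, which share arrays and in part sequences), and with each design cluster taken once it was -0.06 (22 clusters). A member's WT excess was larger than its 3'IVT excess in 14 of 34, against 8.89% of all wheat probe sets and 38.6% of the 127 above both thresholds. The count of members depends on the threshold, and with the median or the highest bioB probe set it was 10.

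The WT signal moved with the 3'IVT signal over the array as a whole. Of the 131 wheat probe sets with a 3'IVT excess above 5 log2 units, 16.8% were above the WT threshold and their median WT excess was -2.41, whereas of the 50554 at or below the 3'IVT threshold 0.192% were above the WT threshold, with a median of -7.41. The bin above 5 held 4 members with WT excesses from -0.05 to 4.28. TaAffx.128712.4.S1_x_at and TaAffx.28490.2.S1_s_at, the lowest of these in the WT assay, ranked 3 and 80 among wheat probe sets on the 3'IVT array. The bin from 1 to 2 log2 units held 10 members with a median WT excess of 3.82, and the 2905 wheat probe sets there had a median of -6.29. The part of the general relation in single members was not tested.

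Of the 34 members, 5 belong to 4 design clusters that also hold a listed probe set with a named plastid function. Photosystem II, the complex that splits water in the light, was the function named in 3 of these clusters, and maturase K, a plastid intron-splicing factor, in the other. The cluster TaAffx.128712 holds a probe set named for photosystem II protein Z, a small subunit at the edge of the complex, with a 3'IVT log2 signal of 15.49 and a WT log2 signal of 16.15 (TaAffx.128712.18.S1_s_at). Its hypothetical member TaAffx.128712.4.S1_x_at had 15.56 and 15.40, whereas the hypothetical member TaAffx.128712.19.S1_s_at had 10.89 and 19.19. The pair thus stood at opposite ends. The former was within 0.76 log2 units of the protein Z probe set in each assay, and the latter was 4.60 log2 units dimmer than it by 3'IVT and 3.04 brighter by WT. A pair of unknown probe sets of this cluster on the antisense-specific list had 3'IVT signals below the threshold and WT signals like that of the latter, TaAffx.128712.3.S1_at with 6.98 and 18.65 and TaAffx.128712.5.A1_s_at with 8.15 and 19.00.

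In TaAffx.132743 the unknown member TaAffx.132743.10.S1_at had a 3'IVT log2 signal of 11.50 and a WT log2 signal of 19.18. The probe set named for photosystem II protein K, another small subunit of the core, had 12.35 and 19.52 (TaAffx.132743.1.S1_at), 0.85 and 0.34 log2 units above the member. In TaAffx.134856 the unknown member TaAffx.134856.3.S1_s_at had 11.69 and 19.42, and the maturase K probe set TaAffx.134856.1.S1_x_at had 12.61 and 19.11. These are the only probe sets of that cluster, and they were 0.92 and 0.32 log2 units apart. Cytochrome b559 is a heme protein of the photosystem II reaction center, and its listed alpha subunit probe sets had 14.55 and 16.23 (TaAffx.6196.1.S1_at) and 13.47 and 16.58 (TaAffx.6196.2.S1_s_at). An unlisted probe set for the same sequence as the latter, TaAffx.6196.2.S1_at, had only 9.92 and 2.04. The unknown member TaAffx.6196.3.S1_at, at 11.33 and 15.73, was dimmer than both listed probe sets in each assay and brighter than the unlisted one. The 5 members had a median excess of 1.81 for 3'IVT and 3.99 for WT, but these medians join values at both ends, from 1.20 to 5.87 and from 0.21 to 4.24. The 29 members without a named plastid function in their cluster had a median WT excess of 2.09. Without shared probe sets the 5 are reduced to TaAffx.132743.10.S1_at and TaAffx.6196.3.S1_at, with a median WT excess of 2.27.

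ATP synthase, which uses a proton gradient to make ATP, exists in plastids and in mitochondria, and the listed name does not say which is meant, so its cluster was counted apart. TaAffx.128565 holds the unknown members TaAffx.128565.17.S1_at, with a 3'IVT log2 signal of 12.18 and a WT log2 signal of 19.64, and TaAffx.128565.28.S1_x_at, with 13.85 and 18.44. The former had the third highest WT signal of all wheat probe sets. Both were brighter by 2.52 to 4.16 log2 units in the WT assay than the ATP synthase probe sets of their cluster, which had 14.23 and 15.49 (TaAffx.128565.25.S1_s_at) and 11.64 and 15.92 (TaAffx.128565.9.S1_at). The other 3 probe sets of the cluster, which no list holds, were below both thresholds, with WT excesses down to -12.32. Counted with the plastid functions, these would make 7 members.

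A putative senescence-associated protein was the only named function in 2 clusters with 7 members. The function of this protein is not established. TaAffx.128418 is by far the largest cluster, with 113 probe sets for 105 sequences and 6 members, and it holds the named probe set TaAffx.128418.24.S1_at, with a 3'IVT log2 signal of 13.12 and a WT log2 signal of 19.36. The hypothetical members TaAffx.128418.104.A1_s_at, with 14.90 and 19.47, and TaAffx.128418.92.A1_x_at, with 13.94 and 19.36, reached the same WT band. Both carry the letter A, for a design sequence in antisense orientation, and shared probes. The other members were less bright in the WT assay. TaAffx.128418.16.S1_x_at had 15.05 and 17.58, TaAffx.128418.29.S1_s_at had 11.03 and 17.03, TaAffx.128418.15.S1_s_at had 14.61 and 16.28, and TaAffx.128418.102.S1_at had 12.78 and 15.68. Against the named probe set, the WT signals of the 6 members thus ran from 0.11 log2 units above to 3.68 below. In TaAffx.144000 the unknown member TaAffx.144000.1.S1_x_at had 10.86 and 16.67, and the named probe set of the same sequence, TaAffx.144000.1.S1_s_at, had 11.80 and 16.29. The 7 members had median excesses of 4.24 for 3'IVT and 1.84 for WT.

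For 20 members in 15 clusters no listed probe set of the cluster has a named function. TaAffx.128795 holds 3 of them, all named unknown. TaAffx.128795.21.S1_s_at had a 3'IVT log2 signal of 11.37 and a WT log2 signal of 19.64, the second highest WT signal among wheat probe sets. TaAffx.128795.10.S1_x_at had 14.50 and 16.40 and TaAffx.128795.12.S1_x_at had 14.58 and 16.24, so these lay close to each other, brighter than the first by 3'IVT and dimmer by WT. Further unknown probe sets of the cluster on the antisense-specific list were above both thresholds on the deposited signals, with 10.76 and 17.51 (TaAffx.128795.16.S1_at) and 10.13 and 18.95 (TaAffx.128795.21.S1_at). The cluster holds no probe set with a named function in either list.

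TaAffx.129051 holds 3 hypothetical members. TaAffx.129051.3.S1_at had a 3'IVT log2 signal of 11.27 and a WT log2 signal of 19.28, and TaAffx.129051.3.S1_s_at, for the same sequence, had 11.78 and 19.22. TaAffx.129051.1.S1_at had 14.02 and 17.27, higher in the 3'IVT and lower in the WT assay than the others. TaAffx.28490 consists of its members alone, TaAffx.28490.1.S1_at with 12.65 and 15.98 and TaAffx.28490.2.S1_s_at with 14.91 and 15.13. They lay near the WT threshold, and the latter was below it. In 5 of the 6 clusters with several members, the member with the highest 3'IVT signal was the one with the lowest WT signal, and TaAffx.128418 was the exception. These 5 clusters hold only 2 or 3 members each, and in TaAffx.128795 the order rests on members that lay close to each other. Members were also chosen on both signals, so nothing is read from this count.

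In clusters without a named function, 12 members are the only member of their cluster. Of these 12, TaAffx.107567.3.S1_at was the brightest in the WT assay, with a 3'IVT log2 signal of 12.03 and a WT log2 signal of 19.58. Another probe set of that cluster, TaAffx.107567.4.S1_at, which no list holds, was above the WT threshold alone, at 5.55 and 15.40. TaAffx.6585.1.S1_at had 11.32 and 18.83 and is the only probe set of its cluster. Weaker WT signals were found at TaAffx.143999.1.S1_s_at with 13.47 and 17.07, TaAffx.6140.1.S1_s_at with 13.08 and 16.91, TaAffx.143998.1.S1_at with 12.27 and 16.83 and TaAffx.112883.1.S1_at with 10.78 and 16.41. All of these were above both thresholds. TaAffx.6140.1.S1_s_at is paired in the platform annotation with the gene LOC543448.

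The remaining 6 members carry the prefix of UniGene clusters. Ta.28695.5.A1_at, a hypothetical protein and the member with the largest gain of WT excess over 3'IVT excess, had a 3'IVT log2 signal of 10.02 and a WT log2 signal of 19.40. It carries the letter A, and 4 of the 5 S-lettered probe sets of its cluster had the reverse, with 3'IVT signals of 12.68 to 14.36 and WT signals of 9.34 to 12.96, none of them above the WT threshold. The fifth, Ta.28695.1.S1_x_at, was dim in both assays, at 1.23 and 4.37. The other A-lettered probe set of the cluster, Ta.28695.1.A1_at, did not share the member's WT signal and was below both thresholds, at 5.92 and 9.31. Ta.645.3.A1_at, also A-lettered, had 9.39 and 15.08, and the 3 S-lettered probe sets of its cluster likewise had higher 3'IVT signals, of 12.42 to 13.36, and lower WT signals, of 10.75 to 11.99. Taken at its word, the letter A exchanges the strands, so that WT target would report the sense RNA of such a gene. Whether the letters are right was not tested. Ta.20566.2.A1_s_at, the only probe set of its cluster, is A-lettered too but was bright in both, at 14.50 and 17.74. The S-lettered members Ta.1989.3.S1_s_at, Ta.14005.2.S1_s_at and Ta.6492.3.S1_s_at had 14.09 and 17.38, 12.61 and 17.35, and 12.69 and 17.12. The last of these is paired with the gene LOC778410. In Ta.1989 the probe sets Ta.1989.1.S1_a_at (15.30 and 14.55) and Ta.1989.1.S1_x_at (15.02 and 14.58) were brighter than the member in the 3'IVT assay and missed the WT threshold by about 0.6 log2 units.

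**Figure D2:**
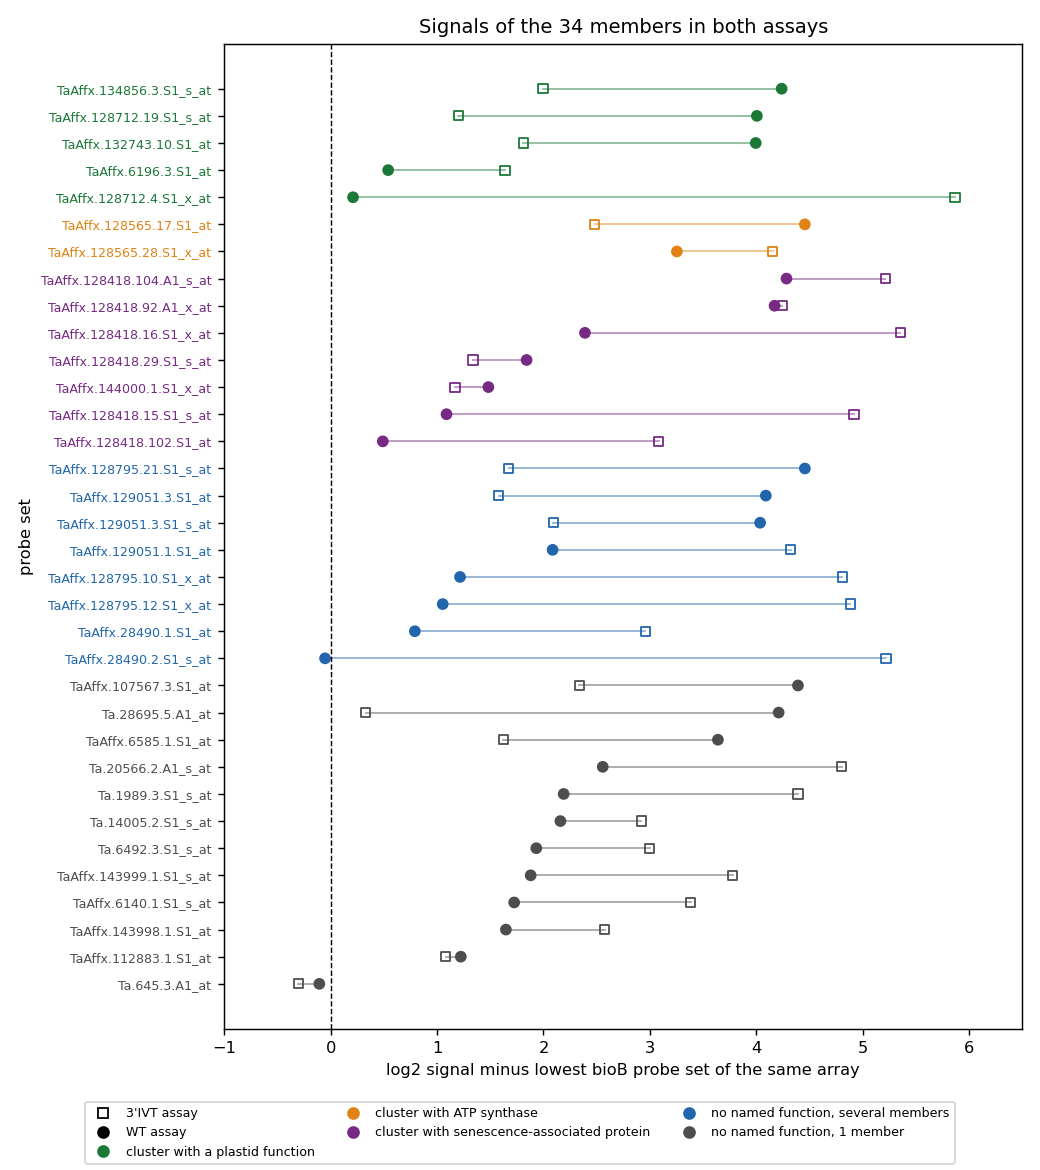
Each row is a member, with its excess over the lowest bioB probe set in log2 units on the x axis, as an open square for the 3'IVT assay and a filled circle for the WT assay, 1 array each. Colors give the named function found in the design cluster. In 14 of the 34 rows the circle lies to the right of the square, and the longest line belongs to TaAffx.128712.4.S1_x_at, from 0.21 to 5.87.

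The design clusters of the members hold 167 further probe sets, of which 16 stand in a list and 151 in none. Of the 167, 43 (25.7%) were above the 3'IVT threshold, 19 (11.4%) above the WT threshold and 13 above both. In the 60 outside TaAffx.128418 these were 30, 16 (26.7%) and 12. Both lists were made from WT signals, so a listed probe set had to be bright in that assay and an unlisted one mostly dim, and the difference between them is not a result. All 16 listed probe sets were above the WT threshold. Of the 151 in no list, 3 (1.99%) were above it, namely TaAffx.128418.104.A1_x_at at an excess of 0.57, TaAffx.107567.4.S1_at at 0.21 and TaAffx.128712.2.S1_s_at at 0.02. The median WT excess of the 151 was -6.39, against -7.18 for all wheat probe sets. In TaAffx.128418 alone, 105 unlisted probe sets included 1 above the WT threshold. The WT signals of that cluster spanned 17.1 log2 units from the dimmest to the brightest probe set. Unlisted probe sets that came close to the WT threshold from below were TaAffx.128418.27.S1_at, with an excess of -0.13 and a high 3'IVT excess of 4.65, TaAffx.128712.1.S1_at at -0.17 and TaAffx.128795.28.S1_at at -0.28. Of the 22 clusters, 16 hold another probe set than members, and in 10 of these at least 1 such probe set was above the WT threshold. That count includes the listed probe sets, which were chosen for their WT signal, so nothing is read from it. Unlisted probe sets were above the WT threshold only in TaAffx.128418, TaAffx.107567 and TaAffx.128712.

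**Figure D3:**
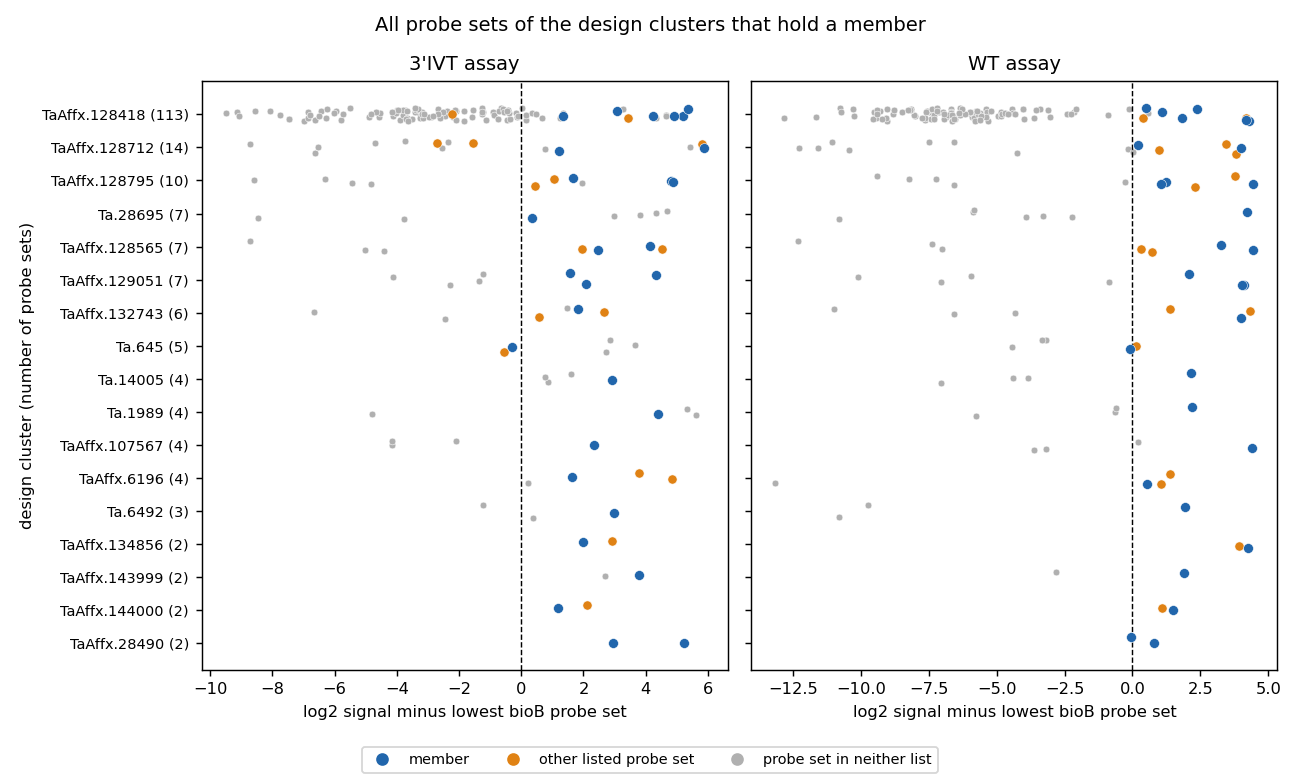
Each row is a design cluster with 2 or more probe sets, their number in parentheses, and each point a probe set at its excess over the lowest bioB probe set in log2 units, for the 3'IVT assay on the left and the WT assay on the right. Points are spread vertically only to separate them. In the WT panel members and other listed probe sets gather at or above the dashed threshold, and 3 of the 151 gray probe sets lie above it.

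The annotation of the largest cluster shows that a cluster is not a gene. Within TaAffx.128418, 6 probe sets are paired with 5 different genes. These include the members TaAffx.128418.102.S1_at (LOC606363) and TaAffx.128418.92.A1_x_at (LOC542778). A further one, TaAffx.128418.105.S1_at, is paired with petC, the Rieske iron-sulfur protein of the cytochrome b6-f complex that links the photosystems. Its signals, of 3.08 by 3'IVT and 7.63 by WT, were far below both thresholds. Other clusters differed from this, since all annotated probe sets of Ta.28695 were paired with LOC542898 and those of Ta.6492 with LOC778410. A gene was given for 4 of the 34 members, and 30 are unnamed here.

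Signals of probe sets made for the same sequence and strand were set side by side, though such probe sets may have some probes in common, which was not tested. A second such probe set exists for 9 members, in 9 comparisons. Over the array 6186 such comparisons had a median absolute difference of 0.93 log2 units by 3'IVT and 1.31 by WT. TaAffx.129051.3.S1_at and its partner differed by 0.51 and 0.05, Ta.645.3.A1_at and Ta.645.3.A1_x_at by 0.26 and 0.25, and TaAffx.128795.21.S1_s_at exceeded TaAffx.128795.21.S1_at by 1.24 and 0.70. In these, the WT signals were within 1 log2 unit. The next comparisons differed more. Ta.6492.3.S1_s_at exceeded Ta.6492.3.S1_a_at by 2.60 log2 units by 3'IVT and 11.66 by WT, where the latter had a log2 signal of 5.46. Ta.14005.2.S1_s_at exceeded Ta.14005.2.S1_x_at by 2.16 and 6.02, and TaAffx.143999.1.S1_s_at exceeded TaAffx.143999.1.S1_at by 1.10 and 4.71. TaAffx.128418.104.A1_s_at exceeded TaAffx.128418.104.A1_at by 9.21 and 6.43. In all of these sequences the member has the suffix for probes shared between transcripts, and the part of each transcript in its signal was not tested. In 4 of the 9 comparisons the WT signals were more than 4 log2 units apart and in 4 within 1. Among 24 comparisons with a probe set above the WT threshold that hold no member, these were 9 and 11. No member has a probe set for the opposite strand of its own sequence.

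**Figure D4:**
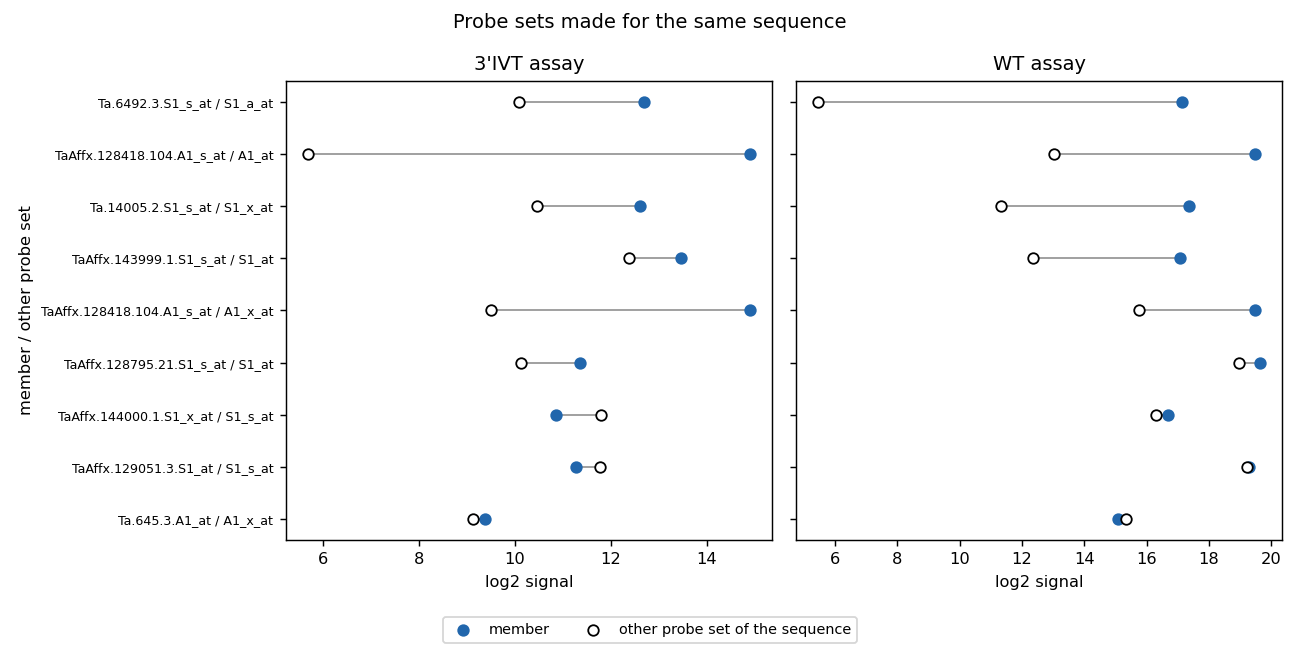
Each row is a member, in blue, and another probe set for the same sequence and strand, in white, with log2 signals on the x axis for the 3'IVT assay on the left and the WT assay on the right. The lines in the WT panel run from 0.05 log2 units for TaAffx.129051.3.S1_at to 11.66 for Ta.6492.3.S1_s_at.

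Members were chosen by signal, so the names they carry may move with brightness and are given as a description. A suffix for probes shared between transcripts was carried by 21 of the 34 members (61.8%, exact 95% binomial interval 43.6 to 77.8), of which 14 end in _s_at and 7 in _x_at, beside 45.7% (36.8 to 54.7) of the 127 wheat probe sets above both thresholds, 44.7% (33.3 to 56.6) of the 76 named pairs and 20.8% of all wheat probe sets. The letter A was carried by 5 members (14.7%, 4.95 to 31.1), beside 10.2% (5.56 to 16.9) of the 127 and 17.4% of all wheat probe sets. Intervals cover counting error only and take members as separate, although several share a cluster. Members with shared probes had a median 3'IVT excess of 4.16 log2 units (21 probe sets, 1.17 to 5.87) and those without the suffix 1.81 (13 probe sets, -0.30 to 4.32). Their median WT excesses were alike, 2.16 and 2.09. The hypothetical proteins lay at medians of 4.01 and 2.47 (14 probe sets) and those named unknown at 2.41 and 1.69 (20 probe sets), with ranges that overlap over most of their length.

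The other listed transcripts are set beside the members as a description. The 76 pairs with a named function had a median excess of 3.10 log2 units for 3'IVT and 1.58 for WT (WT quartiles 0.78 and 3.40), and 73 were above both thresholds. The 10 probe sets named for photosystem II, cytochrome b559 or the oxygen-evolving complex in either list lay at medians of 4.16 and 1.44, and 9 were above both. The 9 for photosystem I lay at 3.11 and 0.91, all above both. The 10 for ATP synthase lay at 1.94 and 0.75, with 8 above both, and the 22 for chloroplast ribosomal proteins at 1.77 and 3.10, with 21 above both. The 49 unknown transcripts of the antisense-specific list were selected for lacking a present call or a signal above bioB in the 3'IVT assay. They lay at -1.89 and 1.63, with 6 above both. No test was made between these groups, which were all chosen on the signals of the same arrays.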

How the data were processed

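The deposited table gives 1 signal intensity per probe set and array. The authors made it with MAS5 per the submitters' labels, which summarizes the probes of a set and scales each array separately; the 2% trimmed means were 500.3 and 500.2. Log2 of the intensity was taken here, with no normalization between arrays. The median log2 signal of all wheat probe sets was 6.63 by 3'IVT and 8.01 by WT. The effect of the scaling on these values was not tested. Controls (111 probe sets) and reporter genes (64) were left out of counts. Design clusters are names up to the second dot. Functions and list membership come from the study's lists, without their values. A function was called plastid from its name. Genes come from the platform annotation and RefSeq symbols of IWGSC CS RefSeq v2.1. Members, lists and groups were chosen with earlier results of these data known. Named were all members, listed or brightest probe sets of their clusters, probe sets of the same sequence, and some others after their values were seen. Without replicate arrays no test was run, and the number of arrays limits the precision. Alternatives were other bioB thresholds, quantile normalization, a pseudocount of 64, and leaving out shared probe sets, A-lettered members, repeated clusters or the largest cluster. Counting was tested on simulated data for 61115 probe sets. Tools were matplotlib 3.10.9, scipy 1.17.1, pandas 2.3.3, numpy 2.4.6 and Python 3.11.15.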

Additional observations from a re-analysis of the deposited data

How the results depend on the processing

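No paired analysis was possible because each assay has 1 array. Of the 34 members, 27 were above both thresholds with the median and 23 with the highest bioB probe set, instead of 32. With the median bioB probe set as the threshold the median excess of the members was 2.50 log2 units for 3'IVT and 1.17 for WT, and 12 of the other probe sets in their clusters were above the WT threshold instead of 19. With the highest bioB probe set these were 2.10, 0.71 and 7. Under either of these thresholds 10 of the 34 members had the larger excess in the WT assay, instead of 14. Quantile normalization gave a median WT excess of 1.28. Without shared probe sets the median 3'IVT excess was 1.81, 12 of 13 members were above both thresholds, 8 of 13 had the larger excess in the WT assay, 10 other probe sets of the clusters were above the WT threshold and the median WT excess of members with a named plastid function in their cluster was 2.27. With each design cluster counted once 21 of 22 were above both thresholds. Without the largest design cluster, a setting chosen after seeing the data, the median 3'IVT excess was 2.53. These follow from the thresholds moved and the probe sets left out, except the value under quantile normalization, for which the cause was not tested. No median excess changed sign under any of these settings. Members were selected to exceed bioB in both assays on these arrays, so nothing is read from this.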

Other observations

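Members TaAffx.143998.1.S1_at, TaAffx.143999.1.S1_s_at and TaAffx.144000.1.S1_x_at belong to the 5 highest cluster numbers of the array, from TaAffx.143996 to TaAffx.144000. This was seen in the data and not sought. These clusters hold 7 probe sets, of which 6 were above both thresholds, against 0.208% of all wheat probe sets. The others were a zinc finger protein, which binds nucleic acid or protein (TaAffx.143996.1.S1_s_at, a 3'IVT log2 signal of 12.34 and a WT log2 signal of 15.78), a Yip1 domain protein of vesicle transport (TaAffx.143997.1.S1_s_at, 14.50 and 17.94) and the senescence-associated TaAffx.144000.1.S1_s_at (11.80 and 16.29). Only TaAffx.143999.1.S1_at, at 12.37 and 12.35, was below the WT threshold. The 6 probe sets above both thresholds all stand in the lists, which were made from these same arrays, so nothing is read from their count. The cluster numbered just before these 5 clusters, TaAffx.143995, has 52 probe sets, of which none was above both thresholds and 1 was above that of the WT assay. The preceding 100 cluster numbers that occur on the array, of which the highest is 142914, hold 115 probe sets, with 5 above both thresholds.

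A run of 7 members from 7 different design clusters had WT log2 signals between 16.91 and 17.38, namely TaAffx.6140.1.S1_s_at, TaAffx.128418.29.S1_s_at, TaAffx.143999.1.S1_s_at, Ta.6492.3.S1_s_at, TaAffx.129051.1.S1_at, Ta.14005.2.S1_s_at and Ta.1989.3.S1_s_at. The limits of the run were set after the values were seen. The next members below and above it had 16.83 and 17.58, so the run is not clearly set apart and nothing is read from it. Of the 7, 6 have the suffix for shared probes, beside 21 of all 34 members, and the whole array holds 15 wheat probe sets in this range. Their 3'IVT log2 signals were not alike and ran from 11.03 to 14.09.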
